A study of Mus musculus with 18 samples.

Results

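Transport of amino acids into epidermal cells was followed at the RNA level through 39 genes of 6 solute carrier families in mouse skin and skin tumors with or without Zfp36. Members were chosen by symbol alone, as rows of the gene count table whose name begins with Slc1a, Slc3a, Slc7a, Slc36a, Slc38a or Slc43a followed by a number and whose counts summed to at least 10 over all columns. The table held 52636 genes, of which 45 carried these prefixes and 39 met the count limit. The 6 genes under the limit were Slc7a9 with 5 counts, Slc36a1os with 7, Slc36a3os with 2, and Slc7a12, Slc7a13 and Slc38a11 with 0. By family, 7 members belonged to SLC1, 2 to SLC3, 13 to SLC7, 4 to SLC36, 10 to SLC38 and 3 to SLC43. Slc7a6os carries the name of its neighbor on the other strand and encodes no carrier, and Slc43a3 is known as a carrier of nucleobases. The other members are annotated as amino acid carriers or their relatives.

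Zfp36 encodes tristetraprolin (TTP), a protein that binds AU-rich elements in the 3′ untranslated region of mRNA and speeds its decay. Control animals were homozygous for a floxed gene (Zfp36 fl/fl), and Zfp36 ΔK14 littermates carried in addition a Cre recombinase driven by the human keratin 14 promoter, which is active in basal keratinocytes. All animals were on a C57BL/6 background and were 8 weeks old when the protocol began. Skin was mock-treated or received DMBA, a mutagen, on days 0 and 3 and the tumor-promoting phorbol ester TPA 2 times a week from day 14. Samples were mock skin, DMBA/TPA skin next to tumors (called treated here, and nontumoral in the methods, although its cell type label reads tumoral) and papillomas (tumors), with 3 columns for each stage and genotype. The source label names whole skin, whereas the methods describe EpCAM+ CD45- CD140a- CD31- cells sorted from epidermis. Nothing stated that replicate numbers stand for separate animals, so p-values measure only the spread between these samples, which may be technical.

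Carriers of these families divide the work of supplying a cell with amino acids. The heavy chain encoded by Slc3a2 (CD98) brings SLC7 light chains to the membrane, where they exchange 1 amino acid for another, for example cystine for glutamate (Slc7a11) or glutamine for leucine (Slc7a5). SLC38 members such as Slc38a2 couple uptake of alanine, serine or glutamine to sodium, cationic carriers such as Slc7a1 import arginine and lysine, SLC1 members carry glutamate or small neutral amino acids, and several SLC36 and SLC38 members sit on lysosomes. Transcription of a part of them, Slc7a11, Slc7a5, Slc3a2, Slc7a1 and Slc38a2 included, is known to rise through the transcription factor ATF4 when amino acids are scarce.

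The columns of mock ΔK14 replicates 2 and 3 held the same count for every gene and were used as 1 library, which left 17 libraries and n = 2 in that group. Total counts ran from 2808550 to 9617985. Zfp36 was 152, 713 and 619.9 CPM (counts scaled to a total of 1000000 per normalized library) in mock fl/fl, 366, 503 and 255 in treated fl/fl and 230.0, 176 and 241 in fl/fl tumors, against 17.3 and 38.4, 26.7, 29.7 and 15.2 and 18.5, 12.8 and 10 in the ΔK14 groups of the same stages, so no label was contradicted. Mock replicate 1 of both genotypes stood apart, with 9 keratinocyte markers summing to 3970 and 3960 CPM against 22500 to 24400 in the other 3 mock libraries. Fl/fl tumor replicate 1 also stood apart, with Krt14 at 15640.0 CPM against 3857 and 4150.0 in the other fl/fl tumors and 10950.0, 11290.0 and 11510.0 in ΔK14 tumors. That library also had the fewest total counts, 2808550, and the fewest genes with a count, 19219, against 23339 or more in the others. All 9 keratinocyte markers had counts in every library. Markers of other cell types summed to less. Fibroblast genes summed to 1360, 1750 and 559 CPM in mock fl/fl and to 1040 in each mock ΔK14 library, so this sum did not set replicate 1 apart. Its genes differed, with Dcn at 842 and 973 CPM in replicate 1 of fl/fl and ΔK14, against 96.9, 46.9 and 75.45 in the other mock libraries. Col1a1 was 257 in fl/fl and 28.6 in ΔK14 replicate 1, against 724, 226 and 561 in the others. Over 6 adipocyte genes the sum was 39.2 CPM in fl/fl and 31.0 in ΔK14 mock replicate 1, against 3.57 to 5.09 in the other mock libraries. It was 127 in fl/fl tumor replicate 1, 18.1 and 20.9 in the other fl/fl tumors and 6.51 to 19.2 in ΔK14 tumors. Fabp4 made up most of the high adipocyte sums, at 36.6, 26.7 and 124.5 CPM. Summed over 8 fibroblast genes the level was 559 to 1750 CPM in mock, 404 to 961 in treated and 37.3 to 408 in tumor libraries. Over 7 melanocyte genes it was 52.1 to 329, 62.1 to 376 and 12.4 to 40.1 in the same order, and over 11 leukocyte gene rows 15.4 to 44.6, 16.4 to 182 and 23.9 to 112. The melanocyte sum was 329 and 286 CPM in mock replicate 1 of fl/fl and ΔK14, against 123, 96.4 and 52.1 in the other mock libraries. In treated skin it was 376 in ΔK14 replicate 1, against 62.1 to 148 in the others. The leukocyte sum was 96.1 to 112 CPM in ΔK14 tumors and 100 in fl/fl tumor replicate 1, against 23.9 and 36.6 in the other fl/fl tumors, and only treated ΔK14 replicate 3, at 182, was above 38.1 in treated skin. Cd74 alone was 171.5 CPM in that treated library. In fl/fl tumor replicate 1 S100a4 was 63.5 and Cd74 28.5, against 1.52 and 6.21 (S100a4) and 10.65 and 15.0 (Cd74) in the other fl/fl tumors. Cd74 was 54.7 to 83.4 in ΔK14 tumors. Among fl/fl tumors Cd68, Csf1r, Itgam and Lyz2 were not highest in replicate 1, whereas Ptprc and Fcer1g were, at 1.5 and 0.5 CPM. The part of these cell type markers in the results below was not tested, and in such samples a change in cell make-up and a change of RNA per cell cannot be told apart.

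AU-rich heptamers, the letters TATTTAT, were found in the 3′ untranslated region (the longest one annotated per gene) in 11 of 39 members (28.2%), beside 27.4% of all 21062 genes with such a region. The median region was 1649 bases long in members and 1085 in all genes, and the shares were not adjusted for length. Heptamers are shown here with 8 bases on either side for the 4 members called in 3 of the 4 tumor comparisons below, since TTP binds such elements. The regions of these 4 were long, at 2735 bases in Slc38a2, 5774 in Slc7a2, 9250 in Slc1a2 and 7085 in Slc38a9. Positions are on GRCm38 and capitals mark the heptamer. Slc38a2 held 2 sites, at chr15:96687934-96687956 and chr15:96687888-96687910 on the minus strand. Slc7a2 held 1 at chr8:40919365-40919387 and Slc1a2 held 3, the first at chr2:102786083-102786105, all on the plus strand. Slc38a9 held 2, the first at chr13:112731905-112731927 on the plus strand.
Slc38a2, first site: tgtactgtTATTTATagagcagc
Slc38a2, second site: tttttcaaTATTTATgataaact
Slc7a2: ttaagacaTATTTATcatatttc
Slc1a2, first site: acatgactTATTTATattgtaag
Slc38a9, first site: catactgaTATTTATgttaagtt

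No heptamer was found in the region of Slc7a11, Slc38a4 or Slc7a1, which rose in ΔK14 tumors against treated skin. Of the members shown with a heptamer, Slc38a2 and Slc1a2 rose in that comparison, and Slc7a2 and Slc38a9 fell. A match of letters is a description and not a binding site.

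Promoter windows of RefSeq on GRCm38.p6, from 250 bases before to 50 bases after a start, were available for 30 of the 39 members in 40 windows. They were searched on both strands for the composite element of ATF4 and C/EBP, TGATGNAA, which lay in 4 of 40 windows (10%) beside 3.97% of 32851 windows of all genes. The members with a match were Slc7a11, Slc1a4 and Slc7a7. No window was available for Slc1a5, Slc7a2, Slc7a3, Slc7a4, Slc7a5, Slc36a2, Slc38a1, Slc38a3 and Slc43a3, so these were not searched. Slc7a11 held 1 copy on each strand, at chr3:50443663-50443688 and chr3:50443644-50443669 around a gene on the minus strand, at offsets of -66 and -47 from the start, and Slc1a4 held 1 at chr11:20332701-20332726 in a gene on the minus strand. They are shown because Slc7a11 rose further than any other light chain tested in ΔK14 tumors, with the element in capitals, in the second Slc7a11 and the Slc1a4 sequence on the other strand.
Slc7a11, first element: tcatgtggcTGATGCAAacctggaga
Slc7a11, second element: ctggagaatTTGCATCAtcatgcagc
Slc1a4: cctcctgcgTTGCATCAtctccagcc

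The antioxidant element TGACNNNGC, bound by NRF2 and small MAF proteins, lay in 15% of the members' windows beside 12.4% of all windows. It was in windows of Slc36a1, Slc38a2, Slc43a1, Slc7a1 and Slc7a6, and in none of the windows of Slc7a11. No member's window held both elements.

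Members took between 0.142% and 0.302% of the counts of a library. The share was 0.259% to 0.302% in ΔK14 tumors and 0.182% to 0.224% in fl/fl tumors, so these groups did not overlap. Without Slc38a2, the most abundant member, it was 0.114% to 0.134% in ΔK14 tumors and 0.0656% to 0.0969% in fl/fl tumors, and 0.0658% to 0.132% in mock and treated skin. Levels of different genes were compared as CPM per kilobase of exon. On this scale Slc38a2 was the highest member in all 6 groups and did not overlap the next, with means from 84.3 in treated fl/fl to 222 in ΔK14 tumors. Slc3a2 came second in all 6 groups, with means from 37.7 to 65.9, and overlapped the next member in all groups but fl/fl tumors. After it came Slc7a6 in mock skin, to Slc7a8 in treated skin, to Slc7a5 in fl/fl tumors and to Slc38a4 in ΔK14 tumors.

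**Figure D1:**
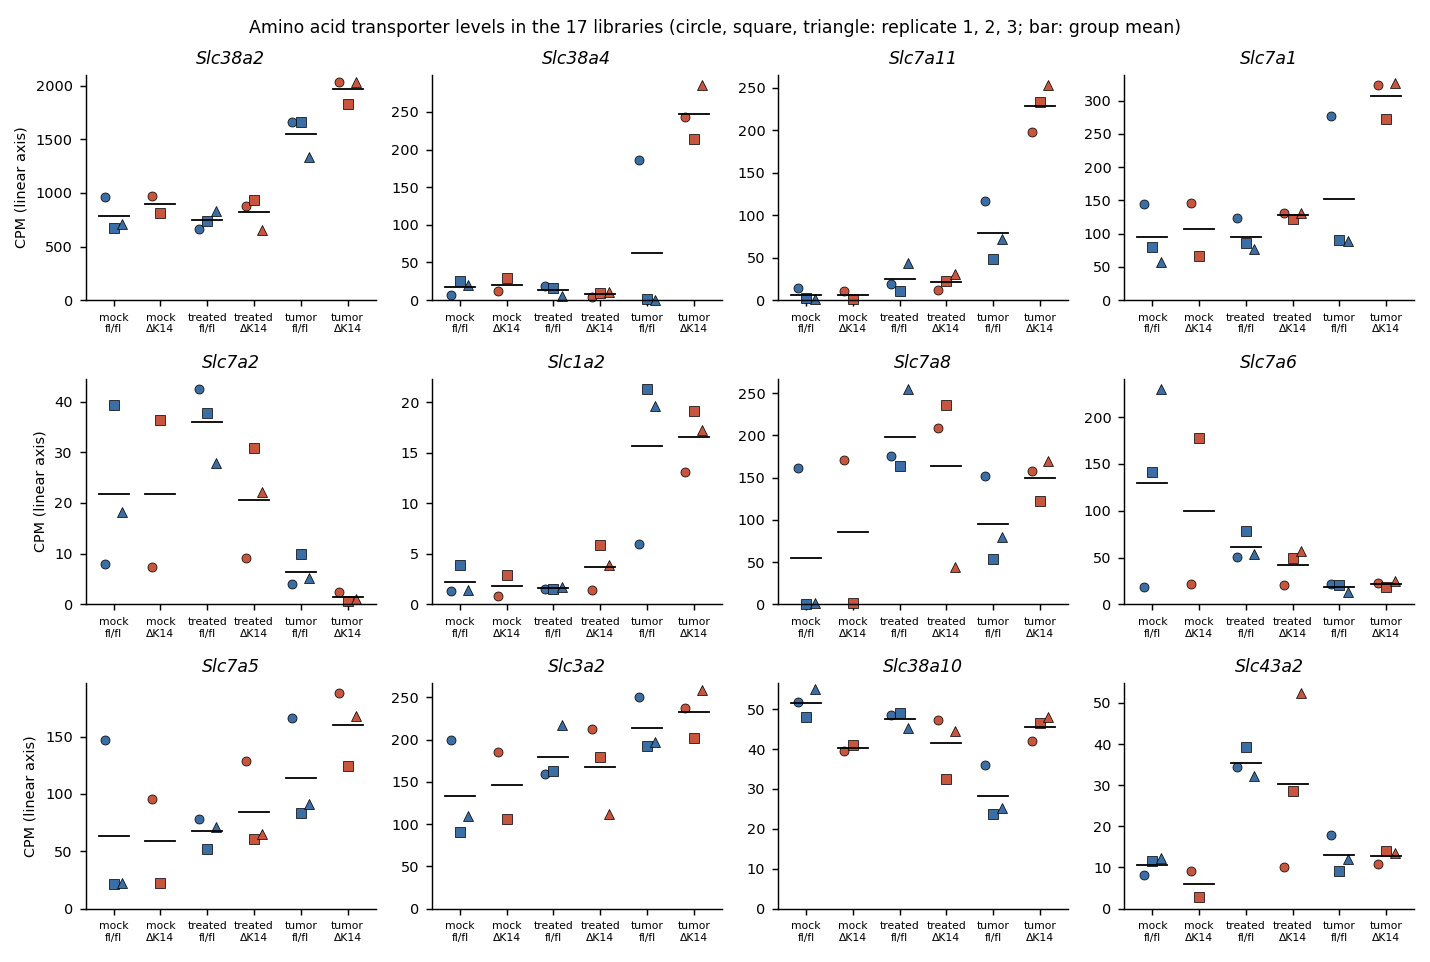
Level of 12 transporter genes in each of the 17 libraries. The y axis of each panel is CPM on a linear scale from 0, each point is a library (circle, square and triangle for replicates 1, 2 and 3, blue for fl/fl and red for ΔK14) and the bar is the group mean. Slc38a2 is at 1331 CPM or more in the 6 tumors and at 975 or less elsewhere, Slc38a4 is at 214 or more in the 3 ΔK14 tumors, and Slc7a8 is at 161 or more in mock replicate 1 of both genotypes and at 1.54 or less in the other mock libraries.

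Tumors differed from treated skin in members of every family but in both directions. Counts of each gene were tested with edgeR's quasi-likelihood test over all genes that passed a low-count filter, and calls were made where the adjusted p was below 0.05 and the change exceeded 2-fold. Members are described as called or not called by this test on all libraries of the groups compared, unless another test or setting is named. In fl/fl animals 2 of the 26 members tested rose, Slc1a2 and Slc38a2, where 7.5% of all genes did, and 6 fell, Slc7a2, Slc7a6, Slc36a1, Slc43a2, Slc38a1 and Slc38a9, where 10.5% did. In ΔK14 animals 5 of 26 rose, Slc38a4, Slc7a11, Slc7a1, Slc38a2 and Slc1a2, where 10.5% of all genes did, and 6 fell, Slc7a2, Slc36a1, Slc38a9, Slc43a1, Slc3a1 and Slc7a6, where 15.5% did. The median log2 fold change over the members tested was -0.47 in fl/fl and -0.24 in ΔK14, beside -0.02 and -0.03 over all genes. Without treated fl/fl replicate 1 the fl/fl count was 5 (7.21% of all genes), and with the other fl/fl libraries left out in turn it ran from 6 to 11 (8.91% to 24.3%). The ΔK14 count ran from 9 to 12 with each library left out in turn (17.5% to 29.2%). Without regard to the test, 4 members were higher and 11 lower in every fl/fl tumor than in every treated fl/fl library, beside 21.9% and 24% of all genes, and in ΔK14 5 were higher and 8 lower, beside 28.4% and 23.8%.

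Against mock skin, no member was called in fl/fl tumors among 24 tested, where 4.11% of all genes were called, 2.22% higher and 1.88% lower. An unadjusted p under 0.05 was found for 10 members, beside 4038 of the 15394 genes tested. DESeq2 and edgeR's exact test each called 5 members in the same comparison, beside 14.3% and 13.0% of all genes. Without mock fl/fl replicate 1 the quasi-likelihood test called 12 beside 21% of all genes, of which 6 rose (Slc1a2, Slc38a2, Slc3a2, Slc7a11, Slc7a5 and Slc7a8) and 6 fell (Slc1a4, Slc38a9, Slc43a1, Slc7a2, Slc7a4 and Slc7a6). Without fl/fl tumor replicate 1 it called 1, Slc1a2, beside 3.65% of all genes. In ΔK14 tumors 4 of 25 members rose against mock skin, Slc38a4, Slc7a11, Slc1a2 and Slc38a2, where 7.05% of all genes did, and 3 fell, Slc7a2, Slc38a9 and Slc43a1, where 7.22% did. Tumors and mock skin did not overlap, whatever the test, for 3 members higher and 7 lower in fl/fl (15.5% and 16.9% of all genes) and for 9 higher and 7 lower in ΔK14 (28.6% and 24.3%). The ΔK14 calls rested on few libraries. Without ΔK14 tumor replicate 2 none was called, without tumor replicate 1 or 3 only Slc38a4 was, without mock ΔK14 replicate 1 the count was 15 (28.1% of all genes) and without mock ΔK14 replicate 2 it was 9 (22%). Calls over all genes fell too without a tumor, to between 0.709% and 2.75%. The comparisons with mock and with treated skin share the tumor libraries, so their calls are not independent of each other.

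Over the 4 tumor comparisons 27 members were tested at least once, and 13 of them were called at least once, beside 33.1% of all genes. Slc1a2, Slc7a2, Slc38a2 and Slc38a9 were called in 3 comparisons, always in 1 direction, where 6.17% of all genes were called in 3 or more. No member was called in all 4. The low-count filter kept 29 members in at least 1 comparison. The other 10, Slc1a6, Slc1a7, Slc7a3, Slc7a10, Slc7a14, Slc7a15, Slc36a2, Slc36a3, Slc38a8 and Slc43a3, were tested in none and stayed at or under 2.15 CPM in every library.

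**Figure D2:**
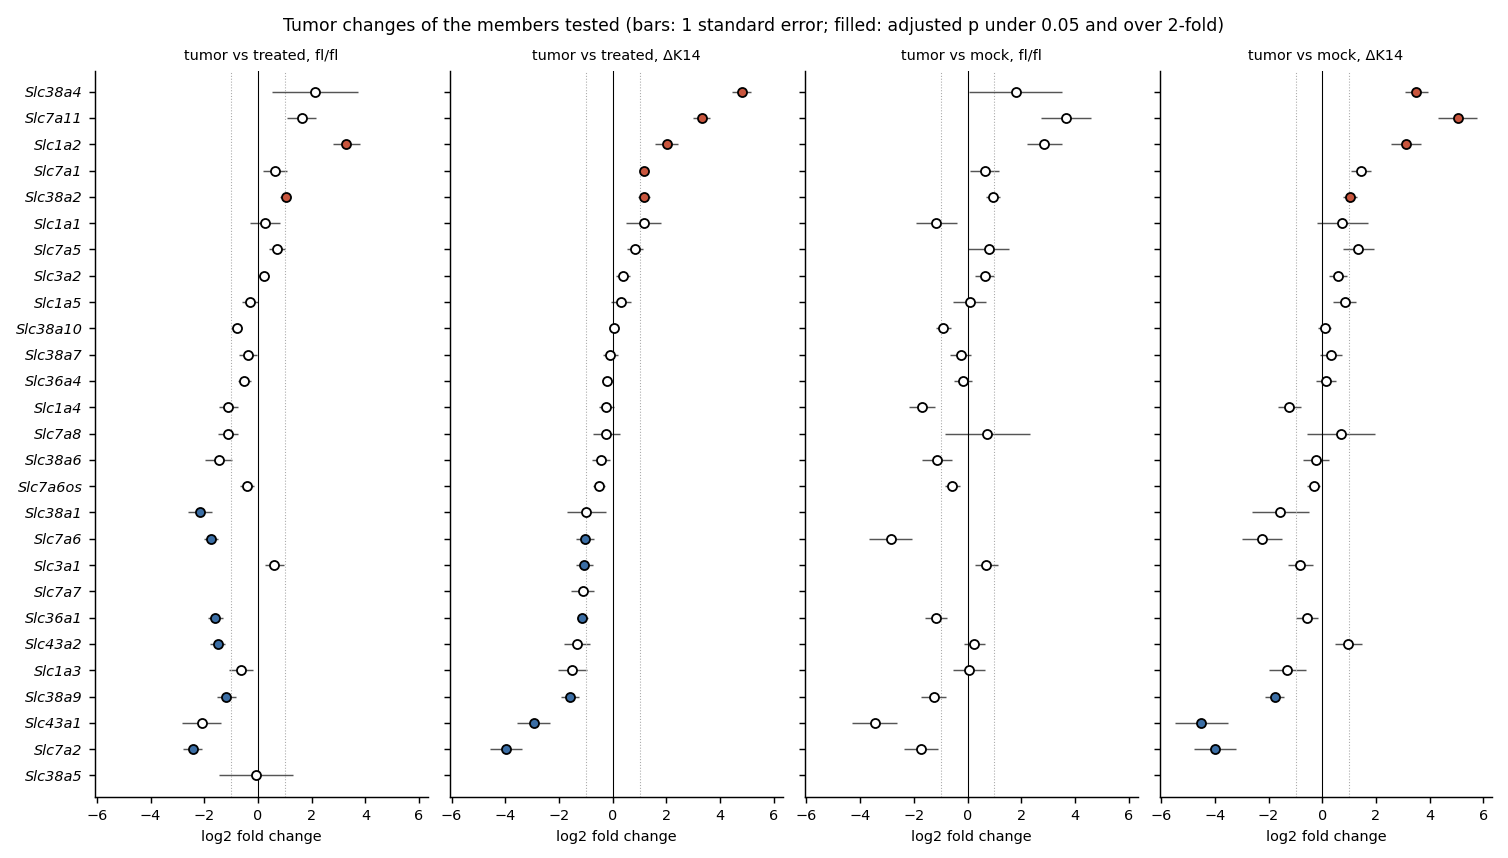
Log2 fold change of each member tested, in tumors against treated or mock skin of the same genotype. Points are the fitted log2 fold change and bars 1 standard error, filled points (red higher, blue lower) are calls at an adjusted p under 0.05 and over 2-fold, and dotted lines mark a 2-fold change. Slc38a4 and Slc7a11 are filled in both ΔK14 panels and open in both fl/fl panels, while Slc7a2 is filled and low in all panels but tumor vs mock fl/fl.

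Among the sodium-coupled carriers of the SLC38 family, which has 10 members here, 2 rose and 2 fell in at least 1 tumor comparison. Of all genes tested, 33.1% were called in at least 1. Slc38a2 (SNAT2), a carrier of small neutral amino acids that cells raise when starved of them, was 958, 671 and 713 CPM in mock fl/fl, 975 and 813 in mock ΔK14, 663, 739 and 832 in treated fl/fl, 878, 931 and 649.9 in treated ΔK14, 1657, 1659 and 1331 in fl/fl tumors and 2031, 1831 and 2035 in ΔK14 tumors. Its 6 tumor libraries lay above the 11 others without overlap. The log2 fold change against treated skin was 1.03 (SE 0.20, edgeR adjusted p = 0.011) in fl/fl and 1.16 (SE 0.22, adjusted p = 0.0048) in ΔK14, and against mock skin it was 0.95 (adjusted p = 0.081) and 1.04 (adjusted p = 0.044). The fl/fl call was lost without treated replicate 1 or 2 or tumor replicate 1 or 2, with log2 fold changes of 0.94 to 1.01, and the call of ΔK14 tumors against mock skin was lost without any 1 of the 3 tumors, at 1.01 to 1.08.

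Slc38a4 (SNAT4), best known from liver and placenta and lying on chromosome 15 within 485 kb together with Slc38a1 and Slc38a2, was 6.64, 25.1 and 20 CPM in mock fl/fl, 12.1 and 29.1 in mock ΔK14, 18.5, 15.5 and 6.13 in treated fl/fl, 3.93, 9.37 and 11.5 in treated ΔK14, 186, 1.37 and 0 in fl/fl tumors and 244, 214 and 285 in ΔK14 tumors. All 3 ΔK14 tumors were high, whereas in fl/fl tumors only replicate 1 was, and replicate 3 held no count, which allows up to 0.98 CPM. The log2 fold change in ΔK14 tumors was 4.80 against treated skin (SE 0.36, edgeR adjusted p = 0.00017) and 3.50 against mock skin (SE 0.44, adjusted p = 0.0094). The latter was not called without ΔK14 tumor replicate 2, at 3.58. In fl/fl tumors the fitted values, 2.13 against treated skin (adjusted p = 0.36) and 1.79 against mock skin (adjusted p = 0.54), rested on replicate 1. Without it they were -3.89 (called) and -4.34 (not called). Slc38a4 made up 17.6% of the SLC38 mRNA per kilobase in fl/fl tumor replicate 1, 0.165% and 0% in replicates 2 and 3, and 18.7% to 21.7% in ΔK14 tumors.

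The remaining gene of that stretch of chromosome 15, Slc38a1 (SNAT1), a glutamine carrier, was 23.9, 0.783 and 0.578 CPM in mock fl/fl, 17 and 0.719 in mock ΔK14, 8.77, 4.81 and 7.43 in treated fl/fl, 8.05, 8.46 and 1.52 in treated ΔK14, 1.0, 1.67 and 1.96 in fl/fl tumors and 6.24, 2.53 and 1.14 in ΔK14 tumors. Mock replicate 1 of both genotypes was far above the other mock libraries. In fl/fl tumors it fell against treated skin, with a fitted log2 change of -2.16 (SE 0.43, edgeR adjusted p = 0.012), a call lost without treated replicate 1, at -1.97. In ΔK14 tumors the value was -1.0 (adjusted p = 0.31). Slc38a5 (SNAT5), which also carries glutamine, had counts in 0 of 3 ΔK14 tumors, which allows up to 0.196 CPM over the group, and was 17, 0.152 and 0.653 CPM in the fl/fl tumors and 2.27, 12.7 and 1.56 in treated fl/fl skin. Only fl/fl tumor replicate 1 and treated fl/fl replicate 2 were over 10 CPM.

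Slc38a9, a lysosomal arginine sensor upstream of mTORC1, was 11.5, 18.8 and 21.3 CPM in mock fl/fl, 13 and 19.8 in mock ΔK14, 14.9, 15.3 and 19.2 in treated fl/fl, 9.12, 16 and 17.7 in treated ΔK14, 3.50, 9.28 and 8.49 in fl/fl tumors and 4.01, 6.33 and 4.73 in ΔK14 tumors. Tumors were below both kinds of skin in each genotype. The log2 fold change against treated skin was -1.18 in fl/fl (SE 0.36, edgeR adjusted p = 0.045) and -1.60 in ΔK14 (SE 0.33, adjusted p = 0.0067), and in ΔK14 against mock skin it was -1.78 (adjusted p = 0.029). The fl/fl call was lost with any 1 of the 6 libraries left out, at -1.41 to -0.90, and the call against mock ΔK14 skin without any 1 tumor, at -1.99 to -1.65. Slc38a10, a less studied relative at 23.7 to 55.0 CPM in the 17 libraries, had an adjusted p of 0.032 in fl/fl tumors against treated skin but changed by less than 2-fold, with a fitted log2 change of -0.79. An opposite-strand transcript, Gm11769, overlaps it and the use of strand is not stated. Slc38a6, at 1.37 to 7.36 CPM, and Slc38a7, at 4.32 to 12.9 CPM, were not called, and neither was Slc38a3, at or under 2.38 CPM. DESeq2, the exact test and 1 fit of all libraries called Slc38a6 in fl/fl tumors against treated skin, and the test without a low-count filter called Slc38a6 and Slc38a3.

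The CD98 heavy chain gene Slc3a2 was 199.9, 90.1 and 109 CPM in mock fl/fl, 185 and 106 in mock ΔK14, 159, 163 and 217 in treated fl/fl, 212, 179 and 112 in treated ΔK14, 251, 193 and 197 in fl/fl tumors and 238, 202 and 259 in ΔK14 tumors. Its tumor values overlapped those of treated skin in both genotypes, with log2 fold changes of 0.21 (SE 0.21, edgeR adjusted p = 0.48) and 0.37 (SE 0.26, adjusted p = 0.28). Without mock fl/fl replicate 1 it was called higher in fl/fl tumors than in mock skin, at 1.08. Of the light chains paired with it, Slc7a5 (LAT1), the main importer of leucine and other large neutral amino acids in growing cells, was 147, 21.3 and 22.7 CPM in mock fl/fl, 95.5 and 22.6 in mock ΔK14, 78.1, 52.2 and 71.5 in treated fl/fl, 128, 60.4 and 65 in treated ΔK14, 167, 83.4 and 91.5 in fl/fl tumors and 189, 124 and 168 in ΔK14 tumors. It was higher in tumors than in treated skin by 0.71 (SE 0.30, adjusted p = 0.12) in fl/fl and 0.83 (SE 0.31, adjusted p = 0.064) in ΔK14 on the log2 scale, neither of them called. Without treated ΔK14 replicate 1 the ΔK14 value was called, at 1.27. An opposite-strand gene, Gm20388, overlaps it.

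Slc7a11 (xCT), the cystine and glutamate exchanger that feeds glutathione synthesis, was 14.7, 1.96 and 1.16 CPM in mock fl/fl, 11.1 and 1.44 in mock ΔK14, 18.5, 11.2 and 43.8 in treated fl/fl, 12.3, 22.1 and 30.3 in treated ΔK14, 117, 47.9 and 72.5 in fl/fl tumors and 198, 234 and 253 in ΔK14 tumors. Each of the 3 ΔK14 tumors was above every other library, and the fl/fl tumors came next, all above every mock and treated library. The log2 fold change was 3.31 against treated skin (SE 0.31, edgeR adjusted p = 0.00032) and 5.04 against mock skin (SE 0.73, adjusted p = 0.012) in ΔK14. Without any 1 of the ΔK14 tumors the latter was not called, at 4.97 to 5.15. In fl/fl it was 1.63 (SE 0.53, adjusted p = 0.057) and 3.66 (SE 0.94, adjusted p = 0.068), values that did not pass although the groups did not overlap. DESeq2, the exact test and the test without a low-count filter called both. The first was called without treated fl/fl replicate 3, at 2.36, and the second without mock fl/fl replicate 1, at 5.69.

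Slc7a8 (LAT2), an exchanger of neutral amino acids, and Slc7a6 (y+LAT2), which exchanges arginine for neutral amino acids, split the mock libraries. Slc7a8 was 161, 0.587 and 1.54 CPM in mock fl/fl, 171 and 1.08 in mock ΔK14, 176, 164 and 255 in treated fl/fl, 209, 237 and 44.3 in treated ΔK14, 152, 54.2 and 79.4 in fl/fl tumors and 158, 122 and 169.5 in ΔK14 tumors. Mock replicate 1 of both genotypes was like treated skin and tumors, and the other mock libraries were nearly devoid of it. Slc7a6 was 18.8, 141 and 230.2 CPM in mock fl/fl, 21.3 and 178 in mock ΔK14, 50.2, 78.5 and 53.7 in treated fl/fl, 20.2, 49.2 and 56.8 in treated ΔK14, 21.5, 20.4 and 12.7 in fl/fl tumors and 23, 18.3 and 24.6 in ΔK14 tumors, with the order of the mock libraries turned around. It fell in tumors against treated skin, changing by -1.76 (SE 0.27, edgeR adjusted p = 0.0048) in fl/fl and -1.04 (SE 0.35, adjusted p = 0.048) in ΔK14 on the log2 scale. The ΔK14 call was lost with any library but treated replicate 1 left out, at -1.10 to -0.77. For Slc7a8 the log2 fold changes against treated skin were -1.11 (adjusted p = 0.066) and -0.24 (adjusted p = 0.74), and without fl/fl tumor replicate 1 the fl/fl value was called, at -1.60.

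Summed per kilobase over Slc7a5, Slc7a6, Slc7a7, Slc7a8, Slc7a10 and Slc7a11, the mRNA of the light chains that pair with Slc3a2 differed in main member between libraries. In mock fl/fl replicates 2 and 3 and mock ΔK14 replicate 2, Slc7a6 made up 81.9%, 88.1% and 84.6%. In mock replicate 1 it made up 5.32% in fl/fl and 7.10% in ΔK14, with Slc7a5 at 51.2% and 39.2% and Slc7a8 at 41.7% and 52.0%. In treated skin Slc7a8 was the main member in 5 of 6 libraries, at 50.1% to 61.8%, and in treated ΔK14 replicate 3 Slc7a5 was, at 42.3% with Slc7a6 at 29.9% and Slc7a8 at 21.3%. In tumors Slc7a5 was the main member in all 6 libraries, at 42.4% to 53.1%, followed by Slc7a8 at 25.6% to 34.2%. Slc7a11 made up 8.13% to 10.6% in fl/fl tumors and 13.9% to 21.3% in ΔK14 tumors, and at most 5.25% in any mock or treated library. These shares are descriptions of mRNA and say nothing of protein.

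**Figure D3:**
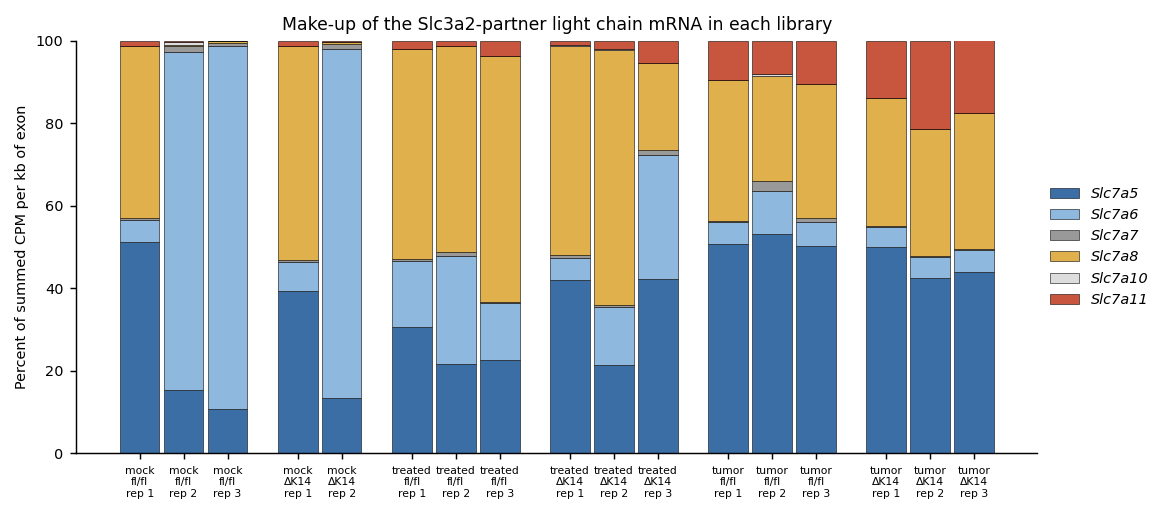
Share of each light chain in the summed CPM per kilobase of exon of the 6 genes whose products pair with the CD98 heavy chain, for each of the 17 libraries. Each bar is a library and adds up to 100%. Slc7a6 fills at least 81.9% of 3 mock libraries, Slc7a8 and Slc7a5 fill most of mock replicate 1 and of treated skin, and Slc7a11 (red) is between 13.9% and 21.3% in ΔK14 tumors.

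The other heavy chain gene, Slc3a1 (rBAT), whose usual partner Slc7a9 was under the count limit, was low, at 4.54, 3.33 and 3.18 CPM in mock fl/fl, 5.40 and 2.87 in mock ΔK14, 4.22, 3.93 and 3.78 in treated fl/fl, 5.01, 4.81 and 5.06 in treated ΔK14, 4.0, 7.61 and 6.53 in fl/fl tumors and 2.01, 2.71 and 2.84 in ΔK14 tumors. The 3 ΔK14 tumors were the lowest of the 17 libraries, and fl/fl tumor replicates 2 and 3 the highest. It fell in ΔK14 tumors against treated skin, with a fitted log2 change of -1.06 (SE 0.31, edgeR adjusted p = 0.025), a call lost when any library but treated replicate 3 was left out, at -1.12 to -0.90. In fl/fl the value was 0.61 (adjusted p = 0.22). Prepl, a gene on the opposite strand, overlaps Slc3a1. Slc7a7 (y+LAT1) was at or under 3.20 CPM in every library and was called in no comparison.

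Among carriers of cationic amino acids, Slc7a1 and Slc7a2 moved apart in tumors. Slc7a1 (CAT1), the general importer of arginine and lysine, was 145, 80.5 and 57.3 CPM in mock fl/fl, 146 and 66.5 in mock ΔK14, 123, 85.5 and 76.6 in treated fl/fl, 130.4, 122 and 131 in treated ΔK14, 277, 90.6 and 89.5 in fl/fl tumors and 324, 272 and 326 in ΔK14 tumors. The ΔK14 tumors and fl/fl tumor replicate 1 were at 272 CPM or more, and all other libraries at 146 CPM or less. Against treated skin it rose in ΔK14 tumors, with a fitted log2 change of 1.17 (SE 0.16, edgeR adjusted p = 0.0016), and against mock skin the value was 1.43 (SE 0.39, adjusted p = 0.052). Without mock ΔK14 replicate 1 or 2 the latter was 1.07 to 2.18. With all libraries DESeq2, the exact test, 1 fit of all libraries, RLE scaling and the test without a low-count filter called it. The replicate block and a mean count of at least 10 did not. In fl/fl tumors it was 0.63 against treated skin (adjusted p = 0.32), and -0.10 without tumor replicate 1.

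Slc7a2 (CAT2), which imports arginine for nitric oxide and polyamine synthesis, was 7.97, 39.4 and 18.2 CPM in mock fl/fl, 7.28 and 36.3 in mock ΔK14, 42.4, 37.8 and 27.9 in treated fl/fl, 9.12, 30.8 and 22.1 in treated ΔK14, 4.0, 9.89 and 5.23 in fl/fl tumors and 2.45, 0.724 and 1.14 in ΔK14 tumors. Tumors were below treated skin in both genotypes, and ΔK14 tumors were the lowest libraries of all. The log2 fold change against treated skin was -2.44 in fl/fl (SE 0.35, edgeR adjusted p = 0.0039) and -3.98 in ΔK14 (SE 0.58, adjusted p = 0.0018). Against mock skin it was -1.74 (adjusted p = 0.13) and -4.0 (adjusted p = 0.026), and the ΔK14 call was lost without any 1 of the tumors, at -4.61 to -3.68. Of the summed mRNA of Slc7a1, Slc7a2, Slc7a3, Slc7a4 and Slc7a14 per kilobase, Slc7a2 made up 25.5% to 36.7% in mock libraries other than replicate 1, 6.40% and 5.87% in mock replicate 1 of fl/fl and ΔK14, and 8.11% to 34.9% in treated skin. It made up 1.79% to 11.6% in fl/fl tumors and 0.332% to 0.934% in ΔK14 tumors.

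In the SLC1 family the glutamate carriers Slc1a1, Slc1a2 and Slc1a3 and the neutral carriers Slc1a4 and Slc1a5 were tested. Slc1a2 (GLT-1), best known from astrocytes, was 1.33, 3.92 and 1.45 CPM in mock fl/fl, 0.809 and 2.87 in mock ΔK14, 1.52, 1.53 and 1.69 in treated fl/fl, 1.43, 5.86 and 3.88 in treated ΔK14, 6.0, 21.3 and 19.6 in fl/fl tumors and 13.2, 19.2 and 17.2 in ΔK14 tumors. The 6 tumors were the 6 highest libraries, although fl/fl tumor replicate 1 was only just above treated ΔK14 replicate 2. It rose against treated skin by 3.30 in fl/fl (SE 0.50, edgeR adjusted p = 0.0050) and 2.01 in ΔK14 (SE 0.44, adjusted p = 0.0081), and against mock skin by 3.12 in ΔK14 (SE 0.56, adjusted p = 0.020), all on the log2 scale. Against mock fl/fl skin the value was 2.85 (adjusted p = 0.054). The call against mock ΔK14 skin was lost without any 1 tumor, at 2.98 to 3.24, and the fl/fl value was called without mock replicate 1 or tumor replicate 1, at 2.64 to 3.23.

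Slc1a5 (ASCT2), a glutamine carrier often high in tumors, was 33.5, 9.40 and 7.32 CPM in mock fl/fl, 23.7 and 11.9 in mock ΔK14, 22.9, 17.7 and 24.2 in treated fl/fl, 36.5, 26 and 14.8 in treated ΔK14, 24.5, 13.4 and 17.3 in fl/fl tumors and 45.3, 23.7 and 33.3 in ΔK14 tumors. Its fl/fl tumors fell within the range of mock skin, and its ΔK14 tumors overlapped treated ΔK14 skin. The log2 fold changes against treated skin were -0.30 (SE 0.28, edgeR adjusted p = 0.47) and 0.30 (SE 0.36, adjusted p = 0.54). Slc1a4 (ASCT1), a carrier of serine and alanine, was 19.6, 34.1 and 52.6 CPM in mock fl/fl, 20 and 53.9 in mock ΔK14, 21.6, 28.2 and 20.9 in treated fl/fl, 12.9, 16.8 and 25.6 in treated ΔK14, 10, 6.85 and 16.7 in fl/fl tumors and 15.8, 14.5 and 19.7 in ΔK14 tumors. No quasi-likelihood call was made for it, at -1.11 against treated skin (adjusted p = 0.053) and -1.70 against mock skin (adjusted p = 0.087) in fl/fl. Without fl/fl tumor replicate 1 or 3 the first was called, at -1.54 to -1.09, and the second without mock replicate 1, at -1.98. DESeq2, the exact test and the test without a low-count filter called both. In ΔK14 the values for Slc1a4 were -0.23 (edgeR adjusted p = 0.53) and -1.23 (edgeR adjusted p = 0.10), the latter called without a low-count filter. Slc1a1 (EAAC1) ran from 1.35 to 25.5 CPM and Slc1a3 (GLAST) from 2.35 to 32.9 CPM, and neither was called. In ΔK14 tumors against treated skin DESeq2 and the exact test called Slc1a3, and the test without a low-count filter called both.

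The proton-coupled carrier Slc36a1 (PAT1), found on lysosomes, was 21, 12.3 and 16.2 CPM in mock fl/fl, 18.1 and 7.90 in mock ΔK14, 21.5, 24.9 and 20.7 in treated fl/fl, 20.6, 17.3 and 20.7 in treated ΔK14, 5.0, 7.46 and 9.80 in fl/fl tumors and 8.25, 9.41 and 10.6 in ΔK14 tumors. Every tumor was below every treated library of both genotypes. The log2 fold change against treated skin was -1.59 in fl/fl (SE 0.29, edgeR adjusted p = 0.0085) and -1.14 in ΔK14 (SE 0.21, adjusted p = 0.0041), and both calls were kept with each library left out. Against mock skin the values were -1.17 (adjusted p = 0.12) and -0.57 (adjusted p = 0.38). Slc36a4, its relative, ran from 15.1 to 40.7 CPM and was called in no comparison.

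Of the SLC43 family, Slc43a2 (LAT4) was 8.08, 11.6 and 12.3 CPM in mock fl/fl, 9.17 and 2.87 in mock ΔK14, 34.5, 39.3 and 32.2 in treated fl/fl, 10.2, 28.6 and 52.4 in treated ΔK14, 18, 9.13 and 12.1 in fl/fl tumors and 10.9, 13.9 and 13.6 in ΔK14 tumors. Treated fl/fl skin was above every mock and tumor library, and treated ΔK14 replicate 1 was within the range of the 6 tumors. It fell in fl/fl tumors against treated skin, with a fitted log2 change of -1.5 (SE 0.28, edgeR adjusted p = 0.0091), and in ΔK14 the value was -1.33 (SE 0.48, adjusted p = 0.058). Without treated ΔK14 replicate 1 the latter was called, at -1.72. Slc43a1 (LAT3) was 3.76, 11.9 and 13.9 CPM in mock fl/fl, 2.97 and 15.5 in mock ΔK14, 5.74, 4.37 and 1.82 in treated fl/fl, 3.04, 2.73 and 3.20 in treated ΔK14, 0, 1.52 and 0.653 in fl/fl tumors and 0.669, 0.543 and 0 in ΔK14 tumors. In ΔK14 tumors it held 6 counts over the 3 libraries, against 57 in treated and 54 in mock skin. After scaling, treated skin was 7.56 times as high (95% interval 3.27 to 21.5) and mock skin 21.2 times as high (95% interval 9.14 to 60.3), where the intervals cover counting error only. Both differences were called, at edgeR adjusted p = 0.0075 and 0.033, the latter not without mock replicate 2 or without any 1 tumor, with fitted log2 fold changes of -5.0 to -2.84. In fl/fl the values were -2.09 against treated skin (adjusted p = 0.069) and -3.46 against mock skin (adjusted p = 0.058).

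Between treated and mock skin no member was called in either genotype, with 28 tested in fl/fl and 26 in ΔK14, and 0% of all genes were called. At an unadjusted p under 0.05 there were 2 members in fl/fl and 1 in ΔK14, beside 913 of 16601 and 763 of 15891 genes tested. DESeq2 and the exact test each called Slc38a5 and Slc43a2 in fl/fl, beside 0.711% and 0.632% of all genes. They called no member in ΔK14, beside 0.447% and 0.334%. The smallest adjusted p in fl/fl was that of Slc43a2, at 0.17 with a fitted log2 change of 1.75 (SE 0.23), and in ΔK14 its log2 fold change was 2.30 (SE 0.81, edgeR adjusted p = 0.94). Without mock fl/fl replicate 1, 12 of the members tested in fl/fl were called, beside 15.1% of all genes, 8 higher in treated skin (Slc1a3, Slc1a5, Slc38a1, Slc38a5, Slc43a2, Slc7a11, Slc7a5 and Slc7a8) and 4 lower (Slc1a1, Slc43a1, Slc7a4 and Slc7a6). With all libraries 3 members were higher in every treated than in every mock library and 0 lower in fl/fl (5.4% and 4.81% of all genes), and 2 were higher and 1 lower in ΔK14 (7.8% and 8.3%). Without mock fl/fl replicate 1, 1363 of all genes were called higher and 1224 lower.

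Between ΔK14 and fl/fl no member was called at any stage by the quasi-likelihood test with the low-count filter. DESeq2 and the exact test each called Slc7a11 and Slc7a2 in tumors, beside 2.6% and 2.33% of all genes. Without the filter 6 members were called there, beside 4.27% of all genes. The quasi-likelihood test with the filter covered 24 members in tumors, where it called 0.0284% of all genes, 0.0213% higher and 0.00711% lower in ΔK14. It covered 27 in treated skin, where 0.00616% were called, and 26 in mock skin, where 0% were. At an unadjusted p under 0.05 in this test there were 6 members in tumors, 1 in treated skin and 0 in mock skin. Over all genes tested there were 1975 of 14067, 901 of 16232 and 253 of 15920 in the same order. In tumors, groups did not overlap for 6 members. Slc7a11 and Slc38a2, Slc38a4 and Slc38a10 were higher in all 3 ΔK14 tumors than in all 3 fl/fl tumors, 4 of 24 beside 13.6% of all genes, and Slc3a1 and Slc7a2 were lower, 2 of 24 beside 4.23%. In treated skin 1 member was higher without overlap (5.78% of all genes) and 1 lower (5.93%), and in mock skin 0 were higher (6.97%) and 2 lower (5.58%).

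The smallest p in tumors was that of Slc7a11, at 198, 234 and 253 CPM in ΔK14 against 117, 47.9 and 72.5 in fl/fl. Its log2 difference was 1.41 (SE 0.31, edgeR adjusted p = 0.18). DESeq2 and the exact test called it, with adjusted p from 3.8E-7 to 0.64 over all alternatives. In treated skin its difference was -0.22 (SE 0.49) and in mock skin 0.03 (SE 1.35). Next came Slc7a2 in tumors, with a ΔK14 minus fl/fl value of -2.35 on the log2 scale (SE 0.57, adjusted p = 0.20), with every ΔK14 tumor below every fl/fl tumor, which DESeq2 and the exact test also called. It was -0.81 (SE 0.39) in treated skin, where 1 fl/fl library lay within the ΔK14 range. Slc3a1 differed in tumors by -1.43 (SE 0.39, adjusted p = 0.23), Slc1a1 differed by 1.67 (SE 0.60, adjusted p = 0.29) and Slc38a10 by 0.57 (SE 0.22, adjusted p = 0.32).

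Several of these comparisons changed without fl/fl tumor replicate 1. Then 7 members and 16.9% of all genes were called between genotypes in tumors, Slc38a4, Slc7a11, Slc7a1, Slc7a8 and Slc1a5 higher in ΔK14 and Slc3a1 and Slc7a2 lower. The log2 difference of Slc38a4 was 1.93 (SE 1.5) with that library and 7.95 without it, that of Slc7a1 was 0.90 and 1.67, and that of Slc7a11 was 1.41 and 1.82. The library was at 277 CPM for Slc7a1, 152 for Slc7a8 and 167 for Slc7a5, values within or near those of ΔK14 tumors, whereas its Zfp36 level of 230.0 CPM lay between those of the other fl/fl tumors. Other members of this library were outside the ΔK14 tumor range. Slc7a11 was at 117 CPM against 198 to 253, and Slc1a2 at 6.0 against 13.2 to 19.2. Slc38a10 was at 36 against 42.1 to 48.1, and Slc38a5 at 17 against 0. The sum of the leukocyte markers split the fl/fl tumors in the same way, mainly through S100a4 and Cd74. Its part was not tested, and neither was that of the low total counts of this library.

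**Figure D4:**
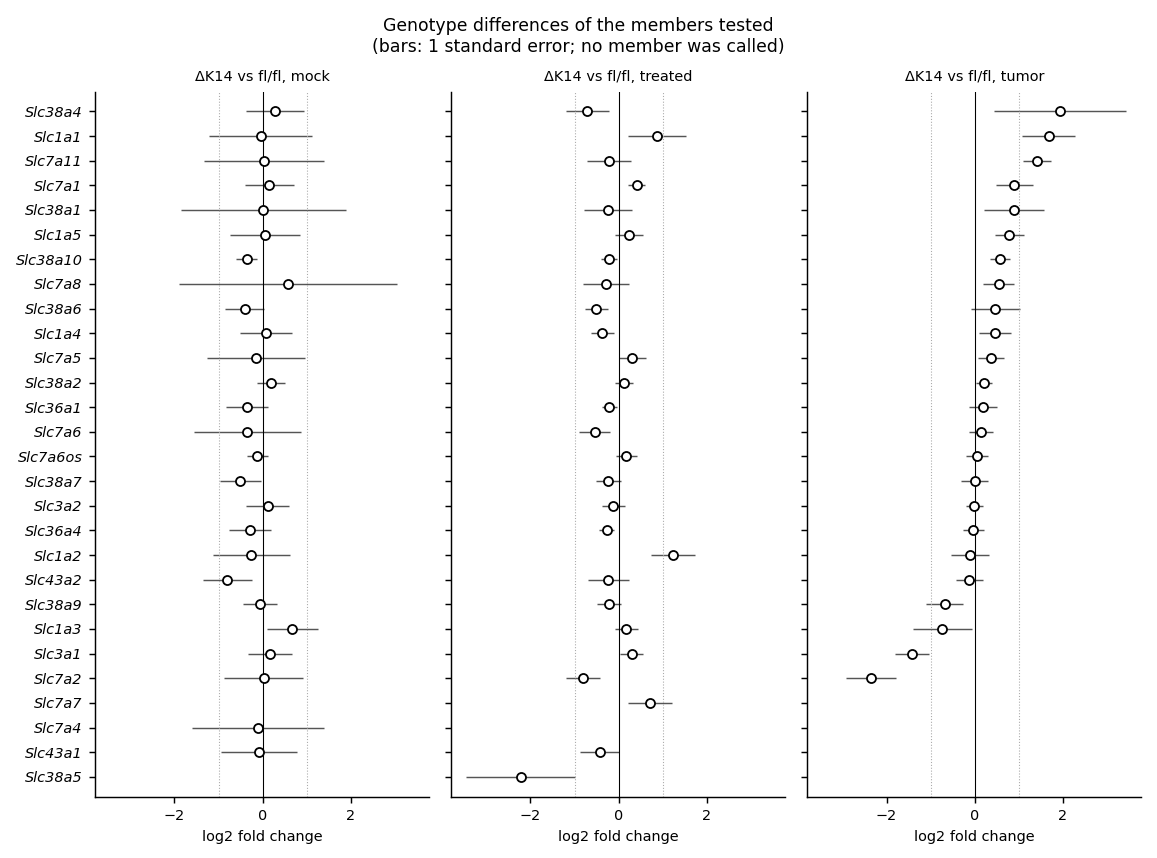
Log2 difference of each member tested between ΔK14 and fl/fl at each stage. Points are the fitted log2 difference, positive where ΔK14 is higher, and bars 1 standard error. No point is filled, since no member was called, and Slc7a11 in tumors lies at 1.41 with a standard error of 0.31.

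No member was called between genotypes in skin. In treated skin the members with the smallest p were Slc1a2 (1.23, SE 0.51), Slc7a2, Slc7a1 (0.40, SE 0.20), Slc38a6 (-0.51, SE 0.26) and Slc38a5 (-2.23, SE 1.23), with edgeR adjusted p of at least 0.90. In mock skin they were Slc38a10 (-0.36, SE 0.24), Slc43a2 (-0.80, SE 0.56), Slc1a3 (0.67, SE 0.58), Slc38a7 (-0.51, SE 0.46) and Slc38a6 (-0.41, SE 0.45), all with an adjusted p of 1.0.

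The change from skin to tumor was also compared between genotypes in 1 fit of the 4 groups concerned. No member was called among 27 tested, against treated skin (0.0118% of all genes called) or against mock skin (0% called). At an unadjusted p under 0.05 there were 4 and 2 members, beside 2243 of 17017 and 1423 of 17388 genes tested. Against treated skin the smallest p were those of Slc3a1 (-1.66, SE 0.44, edgeR adjusted p = 0.21), Slc38a10 (0.86, SE 0.28), Slc7a7 (-2.20, SE 0.78), Slc7a11 (1.70, SE 0.64, adjusted p = 0.30) and Slc7a2 (-1.52, SE 0.71), where a positive value means a larger rise or smaller fall in ΔK14. Slc38a4, called in ΔK14 and not in fl/fl, had an interaction of 2.71 (SE 1.77, adjusted p = 0.54), and Slc7a1 one of 0.56 (SE 0.51, adjusted p = 0.68). Without fl/fl tumor replicate 1, 4 members and 7.53% of all genes were called, Slc38a4 at 8.71, Slc7a1 at 1.29, Slc38a10 at 1.05 and Slc3a1 at -1.85. Against mock skin Slc38a4 was the 1 member called without that library, at 7.83, beside 0.129% of all genes.

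Genes that use or sense amino acids were set beside the carriers from 7 lists that overlap in part. These lists were chosen with earlier results of these data known. Their counts stand beside 7.5% of all genes higher and 10.5% lower in fl/fl and 10.5% and 15.5% in ΔK14 against treated skin, and 2.22% and 1.88% and then 7.05% and 7.22% against mock skin, with medians over all genes from -0.06 to -0.02. Of 25 tested genes of the ATF4 and amino acid response, 9 rose and 1 fell in tumors against treated skin in fl/fl, and 9 rose and 1 fell in ΔK14. The median log2 fold change over the list was 0.98 in fl/fl and 0.82 in ΔK14 against treated skin. Atf4 itself rose by 1.61 and 1.17 and Asns, which makes asparagine, by 1.81 and 1.43 on the log2 scale, while Cbs, a step from homocysteine to cysteine, fell by 2.59 and 1.83. Against mock skin 4 and 7 rose and 1 fell in each genotype. Of the 5 carriers named above as ATF4 targets, Slc38a2 was called against treated skin in both genotypes, Slc7a11 and Slc7a1 in ΔK14, and Slc7a5 and Slc3a2 in neither.

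Of the list of amino acid catabolism and arginine use, 7 of 16 tested genes rose and 0 fell in tumors against treated skin in each genotype. The median log2 fold change was 0.75 in fl/fl and 0.85 in ΔK14. The risen genes were Ass1 and Arg1, which make and split arginine, Odc1, Srm, Amd1 and Smox of polyamine synthesis and turnover, and Fah of tyrosine breakdown. Ass1 rose by 2.69 in fl/fl and 3.02 in ΔK14, Arg1 by 2.64 and 4.39, and Odc1 by 2.26 and 3.17 on the log2 scale. Against mock skin 2 of 17 rose in fl/fl, Fah and Smox, and 6 of 17 in ΔK14, with 0 falling in both.

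In the list of cystine and glutathione use, 5 of 17 rose in fl/fl and 7 of 17 in ΔK14 against treated skin, with 2 falling in each and medians of 0.68 and 0.70. Hmox1, which degrades heme, rose by 3.27 and 4.04, Srxn1, which repairs oxidized peroxiredoxin, by 4.65 and 2.93, and Nfe2l2, which encodes NRF2, by 1.12 and 1.56 on the log2 scale. Ggt1, which splits extracellular glutathione, fell by 5.24 and 4.02. Against mock skin 3 of 16 rose and 1 fell in fl/fl, and 5 of 16 rose and 0 fell in ΔK14. Slc7a11, the cystine carrier of the same route, was called in ΔK14 by the quasi-likelihood test and in both genotypes by DESeq2 and the exact test.

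Of 17 glutamine and glutamate genes 4 rose and 1 fell in fl/fl and 5 rose and 1 fell in ΔK14 against treated skin, with medians of 0.58 and 0.45. Glul, glutamine synthetase, fell by 1.96 in ΔK14, and Got2 rose by 1.13 in fl/fl and 1.40 in ΔK14. Against mock skin 1 rose and 0 fell in fl/fl, and 4 rose and 1 fell in ΔK14. Of 20 cytosolic aminoacyl-tRNA synthetases 3 rose in fl/fl (Nars, Cars and Hars) and 1 in ΔK14 (Nars) against treated skin and 1 (Cars) and 0 against mock skin, with 0 falling. Their medians against treated skin were 0.60 and 0.50.

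Among mTORC1 components and its sensors, 1 of 34 rose and 4 fell in fl/fl against treated skin, and 2 rose and 5 fell in ΔK14, with medians of -0.02 and 0.11. The members that fell included Sesn1 and Sesn3, relatives of the leucine sensor, at -1.49 and -1.55 in fl/fl and -1.34 and -1.02 in ΔK14, and Depdc5, a brake on mTORC1, at -1.28 and -1.48. They also included Mitf, a melanocyte marker as well as a lysosomal regulator, at -2.05 and -2.23. Against mock skin 0 of 34 rose and 1 fell in fl/fl, and 1 of 33 rose and 0 fell in ΔK14. Of other plasma membrane carriers of amino acids, 1 of 15 rose and 1 fell in fl/fl and 1 rose and 3 fell in ΔK14 against treated skin, with medians of 0.14 and 0.33. Slc6a14, a broad carrier of neutral and cationic amino acids, rose by 2.45 and 2.37, and Slc16a10, which carries aromatic amino acids, fell by 2.05 and 2.62 on the log2 scale. Against mock skin 0 rose in both genotypes, and 1 of 16 fell in fl/fl and 2 of 14 in ΔK14. Between genotypes, in both interactions and between treated and mock skin, no gene of the 7 lists was called.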

How the data were processed

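RNA-seq of EpCAM+ CD45- CD140a- CD31- epidermal cells used RNeasy Plus Micro RNA, Ovation SoLo libraries and an Illumina HiSeq. The authors deposited raw counts per gene. The submitters' processing notes name Trimmomatic 0.36, STAR 2.5.3, HTSeq 0.9.1, DESeq2 and the mm10 build without their roles. Which annotation release was used, whether strand was used in counting and whether duplicates were removed are not given in the sources used here. Values of overlapping genes are therefore uncertain, and intervals from counts hold for counting error alone.

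Samples were grouped by their labels. The tests were those of edgeR 4.0.16 with limma 3.58.1 under R 4.3.3 (filterByExpr, TMM, quasi-likelihood F test, two-sided, Benjamini-Hochberg over all genes tested), with only the groups compared in each fit and a contrast over 4 groups for interactions. Calls were genes below an adjusted p of 0.05 that differed by more than 2-fold. CPM used TMM-scaled sizes of the 17 libraries. Gene lengths, positions and untranslated regions were those of GENCODE on GRCm38. The procedures were tested on simulated data.

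Alternatives were DESeq2 1.42.0, edgeR's exact test, 1 fit of all libraries, RLE scaling, 2 other low-count filters, the replicate number as a block, the identical columns kept apart, and each library left out in turn. Members were taken by the rule on symbol and counts given above. This rule and the lists were chosen with earlier results of these data known. Values in every library were given for 7 fixed members, for up to 5 members with the smallest p among the calls of a tumor comparison in each direction, and by values or range for up to 5 with the smallest p in each genotype comparison. From the lists, genes with calls in a tumor comparison were named.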

Additional observations from a re-analysis of the deposited data

Results flagged for a closer look

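Slc38a10 lay on opposite sides of mock skin in tumors of the 2 genotypes, although neither change was called. It was 51.8, 48 and 55 CPM in mock fl/fl skin and 36, 23.7 and 25.2 CPM in fl/fl tumors, so every tumor was lower, by a fitted log2 change of -0.91 (edgeR adjusted p = 0.092). In ΔK14 it was 39.4 and 41.0 CPM in mock skin and 42.1, 46.5 and 48.1 CPM in tumors, so every tumor was higher, by 0.088 on the log2 scale, less than its standard error of 0.24. The difference between the changes, 1.0 on the log2 scale (SE 0.35, edgeR adjusted p = 0.56), did not pass the test over all genes.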

How the results depend on the processing

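Numbers of members called depended on the test and the libraries. DESeq2 called 13 members in tumors against treated skin in fl/fl, 5 against mock skin in fl/fl, 2 in treated against mock fl/fl skin and 2 between genotypes in tumors, and edgeR's exact test gave the same 13, 5, 2 and 2. Of all genes, DESeq2 called 21.0%, 14.3%, 0.711% and 2.6% in these comparisons, and the exact test 22.3%, 13.0%, 0.632% and 2.33%. In the first comparison both tests kept all 8 member calls and added Slc1a4, Slc38a6, Slc43a1, Slc7a11 and Slc7a8. One fit of all libraries called 7 in fl/fl tumors against mock skin. Without a low-count filter the counts were 14 and 8 in fl/fl tumors against treated and mock skin, 13 in ΔK14 tumors against mock skin, 1 in treated against mock skin in each genotype, 6 and 1 between genotypes in tumors and treated skin, and 3 in the interaction against treated skin. RLE scaling and a mean count of at least 10 kept every count within 1.5 times. Over all genes, calls higher and lower were 342 and 290 in fl/fl tumors against mock skin, but 1001 and 1200 with DESeq2, 863 and 1144 with the exact test, 1449 and 1756 in 1 fit of all libraries and 148 and 96 with the replicate block. Against mock skin in ΔK14 tumors they were 1059 and 1085, with 1452 and 1817 by the exact test, 580 and 358 with the block and 1547 and 2072 with the identical columns apart. Between genotypes in tumors they were 3 and 1, with 198 and 168 by DESeq2, 192 and 136 by the exact test and 61 and 61 in 1 fit. DESeq2 also called 101 and 17 in treated against mock fl/fl skin, 36 and 35 in ΔK14, and 101 and 129 in the interaction against treated skin. Without the filter they were 1109 and 1486 in fl/fl and 2066 and 2088 in ΔK14 tumors against mock skin, 1924 and 2392 in fl/fl tumors against treated skin, 766 and 627 between genotypes in tumors, 113 and 105 in treated skin, and 437 and 566 in the interaction against treated skin.

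The calls of ΔK14 tumors against treated skin lost under an alternative were Slc3a1 and Slc7a6. In fl/fl, Slc38a2 (no filter and replicate block), Slc38a9 (block) and Slc38a1 and Slc7a6 (1 fit of all libraries) were lost, and against mock ΔK14 skin Slc38a4 (1 fit), Slc38a2 (mean count of at least 10 and block), Slc38a9 and Slc7a2 (block) were.

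With 1 library left out, members called ran from 5 to 11 and from 9 to 12 in tumors against treated skin in fl/fl and ΔK14, from 0 to 12 and from 0 to 15 against mock skin, and from 0 to 12 in treated against mock fl/fl skin. They ran from 0 to 7 between genotypes in tumors, from 0 to 4 in the interaction against treated skin and from 0 to 1 in that against mock skin. Where 1 library of mock ΔK14 was left, it was assumed to vary like the other group.

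Correlations of the deviations of same-numbered libraries ran from -0.546 to 0.782, within the comparisons made, and wherever these had 3 pairs at least 1 pair was below 0.1, so replicate numbers were not taken to pair them. The 2 pairs of mock skin, at 0.782 and 0.569, were both higher. With 2 ΔK14 libraries the deviations of these mirror each other, and ΔK14 replicate 2 correlated at 0.721 with fl/fl replicate 3. In mock skin the block called 78 genes higher and 32 lower where 0 were called without it, none of them a member. In treated against mock ΔK14 skin it called 16 and 27 in place of 0. With the replicate block 4 members were called in ΔK14 tumors against mock skin, and the other counts stayed within 1.5 times.

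Of 1314 values of single genes under alternatives, 1137 kept direction and call, 57 lost and 106 gained the call, and 14 reversed. Under the replicate block the log2 fold change of Slc38a4 in fl/fl tumors was -0.92 against treated and -2.35 against mock skin, and that of Slc7a8 in ΔK14 tumors against treated skin was 0.040. The other reversals came with 1 library left out, over which values ran as follows. In fl/fl tumors Slc38a4 ran from -3.89 to 2.76 against treated and from -4.34 to 2.43 against mock skin, Slc7a1 from -0.10 to 0.92 and from -0.11 to 1.13, and Slc1a5 from -0.29 to 1.12 against mock skin. The lowest Slc38a4 and Slc7a1 values were those without fl/fl tumor replicate 1. Leaving out that tumor or mock fl/fl replicate 2 or 3 gave Slc1a5 values of -0.19, -0.21 and -0.29. In ΔK14 tumors Slc7a8 was 0.16 against treated skin without treated replicate 2, and against mock skin Slc7a6 ran from -3.05 to 0.034 and Slc7a8 from -0.20 to 7.05. The interaction of Slc7a11 against mock skin ran from -0.66 to 3.58, the lowest without mock fl/fl replicate 1. The causes were not tested. Depth limits members under a few CPM, where 3 counts correspond to 0.289 to 1.5 CPM in a library.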
